A study of Homo sapiens with 6 samples.

Results

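Keratins and claudins are 2 gene families that mark epithelial sheets, and their RNA was followed here as human embryonic stem cells were turned into mesoderm and smooth muscle. A gene was included when its symbol was KRT or CLDN followed by a number (for keratins with an optional letter A to C) and when a probe set carried that symbol alone. This gave 71 genes, 48 keratins and 23 claudins, of the 18417 genes measured. Total RNA from the established human embryonic stem cell line WA09 had been hybridised to 6 Affymetrix expression arrays, 1 per sample, in 3 groups of 2. The group hESC was undifferentiated WA09 kept in defined StemPro medium. The group INM was nascent mesoderm positive for the transcription factor ISL1, made from WA09 by adding 25 ng/ml of Wnt3a with 50 ng/ml of BMP4 to defined medium for 4 days. The group SMC was smooth muscle cells made with the same 2 factors over 21 days. All groups therefore came from 1 cell line, and no culture kept as long without the factors was among the samples used here. The labels do not say whether the 2 arrays of a group hold separate cultures; p-values thus cover the spread between those arrays alone, which can be technical.

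Keratins are the intermediate filament proteins of epithelial cells. A filament is built from pairs of 1 type I and 1 type II keratin, and KRT8 with KRT18 is the pair of simple, single-layered epithelia and of early embryonic epithelium. KRT7 and KRT19 join them in many ducts and linings, while KRT5 and KRT14 form the pair of the basal layer of skin and most other family members belong to skin, hair, nail and tongue. Desmosomes anchor keratin filaments at the cell surface. Claudins span the membrane and form the strands of tight junctions, the seals between neighbouring epithelial cells, and each member makes the seal tighter or gives it pores for particular ions. Human embryonic stem cells grow as an epithelial sheet with tight junctions, and mesoderm arises from such a sheet through an epithelial to mesenchymal transition, in which transcription factors of the SNAI and ZEB families are known to bind E-box sequences and lower epithelial genes.

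The stretch of 250 bases before the annotated start is printed for 6 of the genes that the results below turn on, so that their regulatory sequence can be read beside their levels. The sequences come from RefSeq, build GRCh38.p14, whose promoter table matched 51 of the 71 genes in 63 windows; KRT7, KRT18, KRT19 and KRT23 are among the 20 genes not matched. They are written 5′ to 3′ in the direction of the gene. In the 4 claudins, capitals mark the E-box of SNAI and ZEB factors, CACCTG or on the other strand CAGGTG.
CLDN7, chr17:7262479-7262728, minus strand: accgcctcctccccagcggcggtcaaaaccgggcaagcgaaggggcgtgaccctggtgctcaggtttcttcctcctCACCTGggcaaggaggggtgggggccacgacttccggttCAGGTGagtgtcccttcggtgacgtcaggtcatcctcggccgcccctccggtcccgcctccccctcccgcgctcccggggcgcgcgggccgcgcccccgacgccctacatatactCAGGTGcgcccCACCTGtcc
CLDN6, chr16:3018184-3018433, minus strand: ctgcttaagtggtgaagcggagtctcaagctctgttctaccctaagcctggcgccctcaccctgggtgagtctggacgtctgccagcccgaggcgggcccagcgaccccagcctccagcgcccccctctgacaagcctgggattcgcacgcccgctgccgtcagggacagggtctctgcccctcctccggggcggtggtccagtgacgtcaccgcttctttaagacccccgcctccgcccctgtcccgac
CLDN3, chr7:73770271-73770520, minus strand: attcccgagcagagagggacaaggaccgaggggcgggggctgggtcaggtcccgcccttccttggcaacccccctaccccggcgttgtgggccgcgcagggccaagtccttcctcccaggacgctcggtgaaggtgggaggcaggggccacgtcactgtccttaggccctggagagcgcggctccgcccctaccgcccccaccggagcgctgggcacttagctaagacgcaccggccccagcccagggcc
CLDN4, chr7:73830746-73830995, plus strand: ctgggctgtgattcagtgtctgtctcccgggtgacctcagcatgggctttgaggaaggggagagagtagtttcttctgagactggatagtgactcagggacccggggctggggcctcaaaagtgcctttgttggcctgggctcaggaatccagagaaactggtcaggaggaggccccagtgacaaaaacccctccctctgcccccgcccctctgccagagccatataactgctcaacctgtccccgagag
In the 2 keratins, capitals mark a TATA box, TATAAA or on the other strand TTTATA.
KRT8, chr12:52926470-52926719, minus strand: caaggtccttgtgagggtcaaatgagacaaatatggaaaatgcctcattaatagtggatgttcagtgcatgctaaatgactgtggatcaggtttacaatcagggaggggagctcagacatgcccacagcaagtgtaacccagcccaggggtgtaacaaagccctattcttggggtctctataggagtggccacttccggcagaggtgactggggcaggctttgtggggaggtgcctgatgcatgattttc
KRT76, chr12:52777346-52777595, minus strand: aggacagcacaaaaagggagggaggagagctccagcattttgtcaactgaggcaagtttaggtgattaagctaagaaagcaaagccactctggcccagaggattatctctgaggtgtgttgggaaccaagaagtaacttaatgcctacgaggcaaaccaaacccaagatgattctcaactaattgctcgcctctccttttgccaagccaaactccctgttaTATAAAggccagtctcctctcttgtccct
The CLDN7 window held 4 E-boxes, which began 174, 135, 20 and 9 bases before the start, and no other of the 63 windows held as many. A second CLDN7 window, at chr17:7263214-7263463, held 0, as did the stretches of CLDN6, CLDN3 and CLDN4 printed here. The E-box was present in 3 of 26 claudin windows (11.5%) and 6 of 37 keratin windows (16.2%), beside 17.5% of all 35116 windows of the table. With the 50 bases after the start counted in, the order turned: 7 claudin windows (26.9%) and 8 keratin windows (21.6%) held it beside 20.6% of all, and CLDN6 and CLDN3 then had 1 each. The families differed more in the TATA box, which lies 29 bases before the start in KRT76. It was found in 20 of 37 keratin windows (54.1%) and in 1 of 26 claudin windows (3.85%), that of CLDN17, against 10.7% of all windows. The GC box, GGGCGG or CCGCCC, ran the other way, with 10.8% of keratin and 38.5% of claudin windows beside 42.6% of all. The motif of TFAP2 factors, GCCNNNGGC on either strand, was in 13.5% of keratin, 23.1% of claudin and 19.8% of all windows, and the palindromic GRHL motif AACCGGTT was in none of the family windows and in 0.117% of all. Windows of 1 gene can overlap and neighbouring family genes arose by duplication, so these shares describe the letters only.

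Levels are the authors' log2 signals, on which 1 unit is a doubling, and changes are differences of group means. The signal of different genes depends on their probes, so levels are set against each other only within a gene. A level under 5.04, the lowest array median over probe sets without a gene symbol, is not shown to lie above background, and 8 keratins and 5 claudins lay under it in all 3 groups. The 2 arrays of a group correlated at 0.994 in hESC, 0.975 in INM and 0.995 in SMC over all genes. INM was the most uneven group, with 700 genes more than 1 apart between its arrays, against 16 in hESC and 11 in SMC. Markers were read against the labels. Against hESC, the hESC list was lower for 7 of 8 genes measured in INM and 8 of 8 in SMC. The shares of all genes were 14.8% and 17.6% lower. LIN28A was the 1 not called in INM (-1.02 ± 0.4, adjusted p = 0.095). It read 12.1 and 12.08 for hESC and 10.39 and 11.76 for INM. The ISL1 mesoderm list was higher in INM for 8 of 8 genes, beside 18.9% of all. GATA4 (2.03 in both), PDGFRA (1.99 and 1.76) and FOXF1 (1.12 and 0.92) lost their calls without hESC replicate 1 or 2. That of FOXF1 was also lost without either SMC array (1.02). The smooth muscle list was higher in SMC than in hESC for 7 of 8, beside 19.7% of all. The exception was MYH11, the myosin of mature smooth muscle, which ran from 5.43 to 5.82 over the 6 arrays. Of the 8 smooth muscle genes, 5 were already higher in INM and 2 rose between INM and SMC, and 4 of the 7 calls in SMC against hESC held without any 1 array.

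Few keratins moved: 5 rose at day 4 and fell again by day 21, and 3 were lower in small steps. Between INM and hESC, 5 of 48 keratins rose and 2 fell at an adjusted p under 0.05, a share of 14.6% beside 33.8% of all 18417 genes (18.9% higher, 14.8% lower). The 5 were KRT7, KRT19, KRT18, KRT8 and KRT23, and these same 5 genes were the keratins that fell between INM and SMC (10.4% of the family beside 21.0% of all genes, 11.1% lower). Both comparisons use the INM arrays, so a high INM array raises the first change and deepens the second. Between SMC and hESC 2 keratins were higher, KRT8 and KRT18, and 3 were lower, KRT76, KRT2 and KRT84 (10.4% beside 37.2% of all genes, 19.7% higher and 17.6% lower). Of these calls, 3 of the 5 rises in INM (KRT8, KRT18 and KRT19) held without any 1 array. So did 1 of the 5 falls to SMC (KRT19) and the 2 higher calls in SMC against hESC. None of the falls against hESC did. The median keratin changed by 0.01, -0.08 and -0.07 in the 3 comparisons, and the median gene by -0.03, -0.02 and -0.05. With the arrays centred on 1 median, the split in INM against hESC became 8 higher and 0 lower, and with quantile normalization 12 higher and 0 lower. All genes shifted the same way, from 3486 higher and 2731 lower to 5097 and 1589, and to 4111 and 2109. In SMC against hESC, these scalings gave 3 higher and 1 lower, and 4 higher and 1 lower, and the keratin median turned to 0.07 and 0.11.

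KRT8, the type II partner of the simple epithelial pair (probe set 7963567), stood at 10.94 and 10.75 on the hESC arrays, 12.87 and 12.93 on the INM arrays and 12.27 and 12.33 on the SMC arrays. The groups did not overlap: INM was highest and SMC lay between it and hESC. KRT8 rose by 2.05 ± 0.12 (SE) in INM, 4.14-fold (adjusted p = 1.2e-04), and fell by 0.59 ± 0.12 to SMC (adjusted p = 0.0165), where it was still 2.74-fold above hESC (adjusted p = 2.4e-04). KRT18, its type I partner (probe set 7955637), read 10.22 and 10.17 for hESC, 12.50 and 12.17 for INM and 11.25 and 11.43 for SMC. Its groups were again apart and in the same order. The rise was 2.14 ± 0.15, or 4.41-fold (adjusted p = 2.1e-04), it later fell by 0.99 ± 0.15 (adjusted p = 0.00571), and SMC stayed 2.22-fold above hESC (adjusted p = 0.00148). The rises held without any 1 array, but the falls to SMC did not. Without SMC replicate 1 or 2 the KRT8 change to SMC was -0.56 or -0.62 (adjusted p = 0.122 and 0.103), and without SMC replicate 1 that of KRT18 was -0.91 (adjusted p = 0.0626). KRT18 has many processed copies in the genome, and its other single-symbol probe set changed by 2.55, -1.21 and 1.34 in the 3 comparisons, the same directions as the main one.

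KRT19 and KRT7, keratins of simple ducts and linings, rose at day 4 as well, and in the fit of all arrays neither passed the test between day 21 and hESC. KRT19, a type I keratin without the usual tail domain (probe set 8015349), had 8.68 and 8.67 for hESC, 10.54 and 11.54 for INM and 8.06 and 8.16 for SMC. Both INM arrays lay above all others, and both SMC arrays lay below hESC. The rise of 2.36 ± 0.30 was 5.15-fold (adjusted p = 0.00184), the gene then fell by 2.93 ± 0.30, 7.62-fold, to SMC (adjusted p = 0.00132), and SMC minus hESC was -0.57 ± 0.30 (adjusted p = 0.182). For KRT7, a type II keratin (probe set 7955613), the arrays gave 6.33 and 6.01 for hESC, 9.83 and 8.05 for INM and 6.35 and 6.74 for SMC. The INM arrays were the highest, 1.78 apart from each other. KRT7 rose by 2.77 ± 0.52, 6.83-fold (adjusted p = 0.00844), fell by 2.39 ± 0.52 (adjusted p = 0.0217), and at day 21 differed from hESC by 0.38 ± 0.52 (adjusted p = 0.608). The 2 genes were uneven between the INM arrays in opposite ways, since KRT7 was higher in INM replicate 1 and KRT19 was 1.0 higher in replicate 2. Of the 48 keratins, 24 were higher in INM replicate 1, beside 8972 of all 18417 genes. The size of both genes' changes depended on the INM array: without INM replicate 1 or 2 the KRT7 rise was 1.88 or 3.66 and its later change -1.51 or -3.28, and for KRT19 they were 2.86 or 1.86 and -3.43 or -2.43. The KRT19 calls held without any 1 array, and its difference between SMC and hESC, -0.57, passed the test without either INM array (adjusted p = 0.00233). The KRT7 rise was 2.93 without hESC replicate 1 (adjusted p = 0.0537) and 2.61 without hESC replicate 2 (adjusted p = 0.065). Its fall lost the call without either hESC array (-2.39, adjusted p = 0.0587), without SMC replicate 1 (-2.20, adjusted p = 0.141) and without SMC replicate 2 (-2.59, adjusted p = 0.105).

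KRT23, a further type I keratin, kept to the same shape at a low level. It read 5.25 and 5.10 for hESC, 5.83 and 5.74 for INM and 5.05 and 4.90 for SMC, where the mean lies under the background reference, so that changes and no folds are given. It rose by 0.61 ± 0.12 (adjusted p = 0.0105) and fell by 0.81 ± 0.12 (adjusted p = 0.00583). The rise was 0.53 without hESC replicate 2 (adjusted p = 0.0723), and the later change was -0.74 without SMC replicate 2 (adjusted p = 0.0683).

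**Figure D1:**
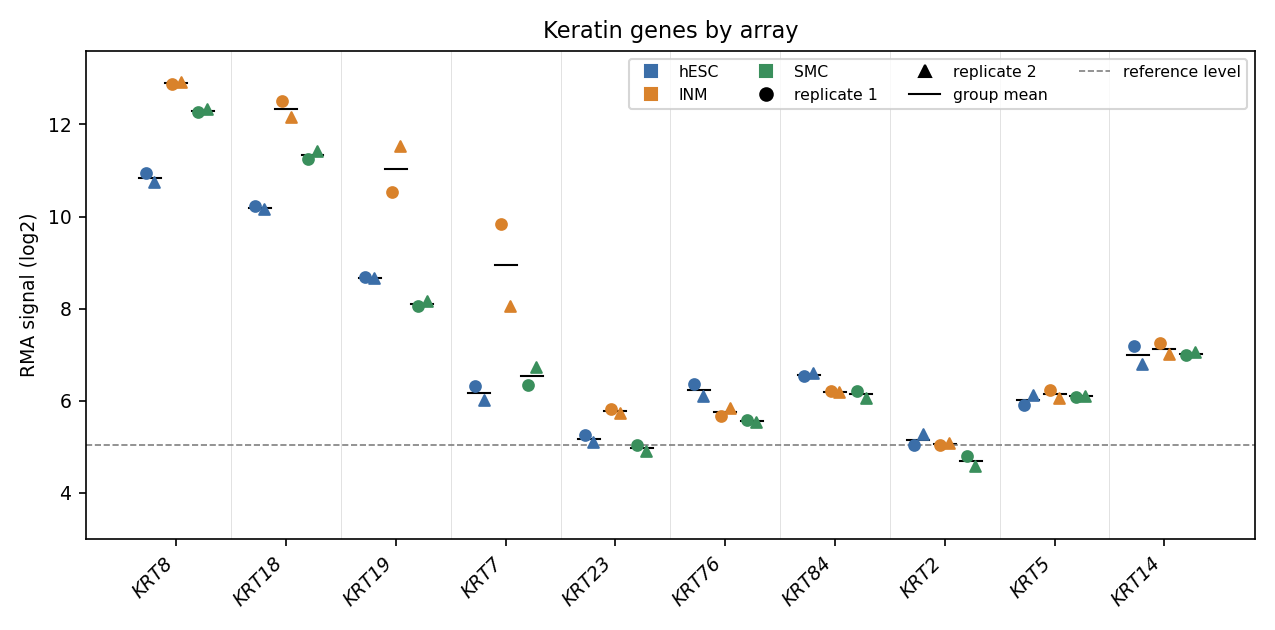
RMA signal on the log2 scale (vertical axis) of 10 keratin genes on each of the 6 arrays, with circles for replicate 1, triangles for replicate 2, black bars for group means and a dashed line at the background reference of 5.04. KRT8, KRT18, KRT19 and KRT7 have both INM arrays above all other arrays, while the 2 INM arrays of KRT7 sit at 9.83 and 8.05, and KRT5 and KRT14 stay level.

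The plot of keratins by array also shows the 3 genes that were lower. KRT76, a keratin of the palate and oral lining whose promoter is printed above, had 6.36 and 6.10 for hESC, 5.68 and 5.85 for INM and 5.58 and 5.54 for SMC. Its hESC arrays were the highest, and it fell by 0.47 ± 0.14 to INM (adjusted p = 0.0393) and fell by 0.67 ± 0.14 between hESC and SMC (adjusted p = 0.00897). KRT84, a type II keratin of hair and nail, fell by 0.37 ± 0.11 in INM (adjusted p = 0.0431) and fell by 0.42 ± 0.11 in SMC (adjusted p = 0.0255), from 6.53 and 6.6 in hESC to 6.21 and 6.18 in INM and 6.21 and 6.07 in SMC. KRT2, a keratin of the upper skin layers, fell by 0.45 ± 0.14 between hESC and SMC (adjusted p = 0.0448), near the background reference in all groups (5.03 and 5.27, 5.05 and 5.09, 4.81 and 4.59). These falls are small, and their calls were lost in fits with fewer arrays while the changes kept their sign. The INM falls of KRT76 and KRT84 lost their calls without either hESC or either SMC array, and also without INM replicate 1 for KRT76 (-0.38, adjusted p = 0.0725) and without INM replicate 2 for KRT84 (-0.36, adjusted p = 0.0576). Without an hESC array the KRT76 change in INM was -0.33 or -0.60 and that of KRT84 -0.40 or -0.34, and both lost their calls under median centring and quantile normalization. The SMC fall of KRT76 lost its call without hESC replicate 1 (-0.54, adjusted p = 0.0643) and without either SMC array (-0.70 and -0.65, adjusted p = 0.0572 and 0.0693). Those of KRT84 and KRT2 lost theirs without either hESC or either SMC array, with changes of -0.36 to -0.49 for KRT84 and -0.33 to -0.57 for KRT2, and under both scalings.

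The remaining 40 keratins passed the test in no comparison. Their array values ran from 3.20 (KRT222) to 7.26 (KRT14), and their changes from -0.45 (KRT25) to 0.40 (KRT10, a keratin of the upper skin layers). The basal skin pair was among them. KRT5 had 5.91 and 6.12 for hESC, 6.23 and 6.07 for INM and 6.08 and 6.11 for SMC, with changes of 0.13 ± 0.13, -0.05 ± 0.13 and 0.08 ± 0.13 (adjusted p = 0.457, 0.822 and 0.647). KRT14 had 7.20 and 6.80, 7.26 and 7.01, and 7.0 and 7.05, with changes of 0.13 ± 0.17, -0.11 ± 0.17 and 0.02 ± 0.17 (adjusted p = 0.576, 0.696 and 0.927). Both genes' groups overlap. The near misses were KRT1, the suprabasal skin keratin, which differed by -0.42 in INM against hESC (adjusted p = 0.0634), KRT10 by 0.40 in SMC against INM (adjusted p = 0.072) and KRT13 by -0.34 in SMC against hESC (adjusted p = 0.0585). The nearest calls on the other side of the threshold were KRT84 and KRT2, given above.

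The keratin genes lie in 1 cluster on chromosome 12, which holds the type II genes and KRT18 (21 measured), and 1 on chromosome 17 with the other type I genes (27 measured). The rises in INM came from both, with 3 genes on chromosome 12 and 2 on chromosome 17. KRT8 and KRT18 are immediate neighbours in the RefSeq gene order and rose by 2.05 and 2.14. The next gene after KRT8, KRT78, changed by 0.02. KRT19, with its rise of 2.36, sits between KRT15 (-0.01) and KRT9 (0.22), and KRT7, with 2.77, lies next to KRT80 (0.37). None of KRT78, KRT15, KRT9 and KRT80 passed the test in any comparison.

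Most of the claudin changes were falls. Between INM and hESC 9 of 23 fell and 1 rose (43.5%, beside 33.8% of all genes called, of which 14.8% lower and 18.9% higher). Between SMC and INM 3 rose and 5 fell (34.8% beside 21.0%, of which 9.94% higher and 11.1% lower), and between SMC and hESC 1 was higher and 8 were lower (39.1% beside 37.2%, of which 19.7% higher and 17.6% lower). The median claudin changed by -0.32, -0.10 and -0.19. Scaling moved these values: with median centring 1 claudin rose and 6 fell in INM (30.4% called beside 36.3% of all genes), and with quantile normalization 1 rose and 7 fell (34.8% beside 33.8%). The claudin falls alone were 39.1% as deposited, 26.1% centred and 30.4% quantile normalized, beside 14.8%, 8.63% and 11.5% of all genes. The claudin median became -0.13 and -0.10 in INM and -0.05 and -0.08 in SMC against hESC, where 2 were higher and 6 lower, and 0 higher and 6 lower. The claudins that fell in INM were CLDN7, CLDN3, CLDN1, CLDN19, CLDN11, CLDN6, CLDN17, CLDN2 and CLDN12, and the 1 that rose was CLDN4. In the fits without 1 array that follow, the number of calls over all genes moved in the same direction as in the families. In SMC against hESC it fell without an hESC or an SMC array, and it rose without an INM array. Leaving out hESC replicate 1 or 2 reduced the calls in INM against hESC from 10 to 4 and 6, and leaving out SMC replicate 1 or 2 reduced those in SMC against INM from 8 to 4 and 5. In SMC against hESC, 5 calls were left of 9 without hESC replicate 2 or without SMC replicate 1. For the keratins, 4 and 3 of 7 calls were left in INM against hESC without hESC replicate 1 and 2, and 2 of 5 in SMC against INM without either SMC array. In SMC against hESC the keratin count was 2 and 3 without hESC replicate 1 and 2, 9 without either INM array and 2 without either SMC array. The calls over all genes moved with these fits: in INM against hESC they went from 6217 to 2939 and 3327 without hESC replicate 1 and 2, in SMC against INM from 3874 to 1192 and 1134 without SMC replicate 1 and 2, and in SMC against hESC from 6859 to 9200 without either INM array.

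**Figure D2:**
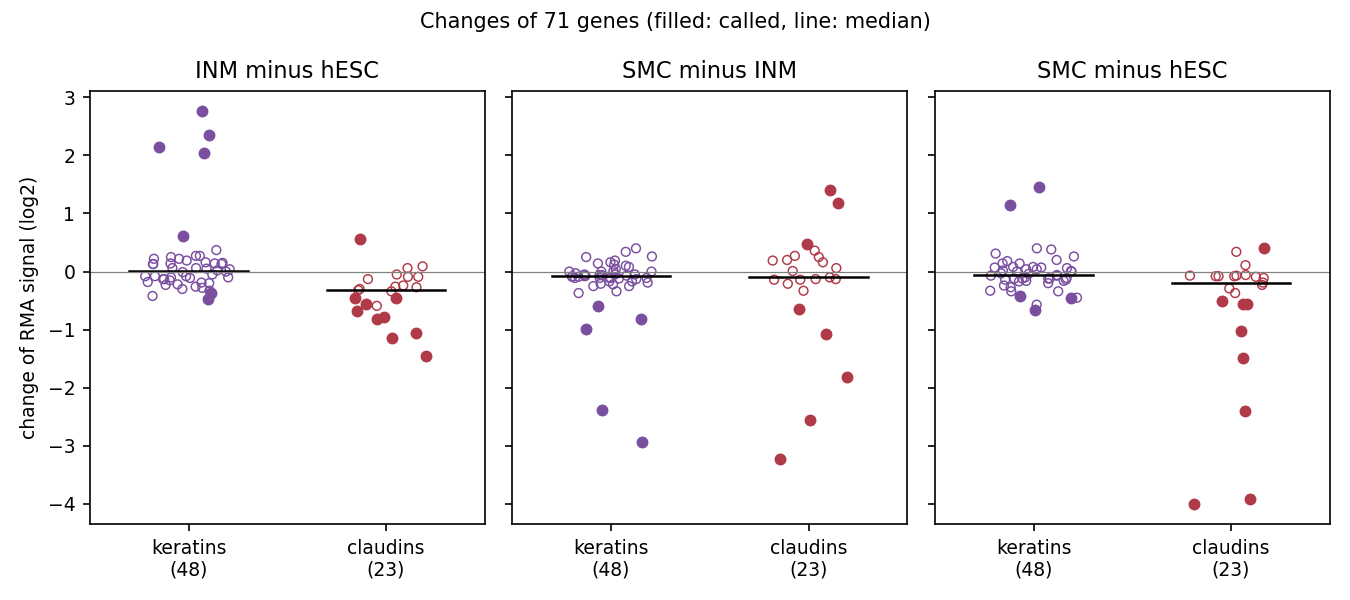
Log2 change of group means (vertical axis) of the 48 keratins and 23 claudins in the 3 comparisons, 1 point per gene, filled where the adjusted p was under 0.05, with a bar at the family median. Most keratins lie near 0 with 4 of them above 2 in INM minus hESC, and the claudins reach -4.01 in SMC minus hESC.

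The plot of changes by family shows that the lowest points of SMC minus hESC are 2 claudins, CLDN7 and CLDN6, which were also the 2 that fell at both steps. CLDN6, a claudin of embryonic epithelium and pluripotent cells (probe set 7998898), had 12.58 and 12.59 for hESC, 11.79 and 12.02 for INM and 8.61 and 8.74 for SMC. Each group lay wholly below the one before. It fell by 0.68 ± 0.13 to INM (adjusted p = 0.00798) and then fell by 3.23 ± 0.13, or 9.38-fold, to SMC (adjusted p = 6.2e-05), which left SMC 15.0-fold under hESC (adjusted p = 1.8e-05). CLDN7, a claudin of many epithelia (probe set 8012126), had 10.92 and 10.94, then 9.45 and 9.50, then 7.01 and 6.83. Its steps were more even than those of CLDN6. They were -1.46 ± 0.12 (2.74-fold, adjusted p = 3.4e-04) and -2.56 ± 0.12 (5.89-fold, adjusted p = 8.8e-05), and SMC ended 16.1-fold under hESC (adjusted p = 1.2e-05). The CLDN7 window printed above held the 4 E-boxes and the CLDN6 window none. The early CLDN6 fall lost its call without hESC replicate 1 or 2 (-0.68 in both, adjusted p = 0.0566 and 0.0536). The other calls of the 2 genes held without any 1 array.

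CLDN3 and CLDN19 fell early and did not change further beyond the threshold. CLDN3, which tightens the seal (probe set 8140140), had 8.86 and 8.75 for hESC, 7.60 and 7.70 for INM and 7.41 and 7.25 for SMC. It fell 2.22-fold to INM (-1.15 ± 0.12, adjusted p = 9.5e-04), changed by -0.33 ± 0.12 after that (adjusted p = 0.106), and ended 2.78-fold under hESC (adjusted p = 2.4e-04). CLDN19, which works with CLDN16 in magnesium uptake in the kidney (probe set 7915435), had 8.23 and 8.09, 7.26 and 7.42, and 6.98 and 7.28. The hESC arrays were highest, and INM and SMC overlapped. CLDN19 fell by 0.82 ± 0.15 (adjusted p = 0.00687), changed by -0.21 ± 0.15 between INM and SMC (adjusted p = 0.367) and ended 2.04-fold under hESC (adjusted p = 0.00219). With hESC replicate 1 left out, its early change was -0.76 and missed the threshold (adjusted p = 0.0593). CLDN12, a claudin that lacks the usual scaffold-binding tail, took the same course with smaller steps, from 10.33 and 10.44 to 9.88 and 9.99 and to 9.82 and 9.86. Its changes against hESC were -0.45 ± 0.11 in INM (adjusted p = 0.0241) and -0.55 ± 0.11 in SMC (adjusted p = 0.00996). The first was lost without either hESC array (-0.50 and -0.39) or either SMC array (-0.45 in both) and under median centring (-0.26, adjusted p = 0.132), and the second without hESC replicate 2 (-0.49) and without SMC replicate 1 (-0.53) or 2 (-0.57).

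CLDN10, which forms ion pores, passed the test of the later step and not of the first. It had 8.73 and 9.03 for hESC, 7.78 and 8.81 for INM and 6.72 and 6.23 for SMC (probe set 7969640). The SMC arrays were lowest, while INM replicate 2 lay within the hESC range and INM replicate 1 was 1.03 below it. INM minus hESC was -0.59 ± 0.34 (adjusted p = 0.231), or -0.07 without INM replicate 1 and -1.10 without INM replicate 2 (adjusted p = 0.813 and 0.00558). CLDN10 then fell by 1.81 ± 0.34 to SMC (adjusted p = 0.0133), and SMC was 5.29-fold under hESC (adjusted p = 0.00224). The fall from INM lost its call without SMC replicate 1 (-2.06, adjusted p = 0.0584) and without SMC replicate 2 (-1.57, adjusted p = 0.11), and the SMC against hESC call held without any 1 array. CLDN34 also fell late, by 0.65 ± 0.17 from INM to SMC (adjusted p = 0.0377) and fell by 0.56 ± 0.17 from hESC (adjusted p = 0.0391), with arrays at 5.97 and 6.25, 6.18 and 6.23, and 5.36 and 5.74. The first call was lost without either hESC array (-0.65) and without SMC replicate 1 (-0.46) or 2 (-0.84). The second was lost without hESC replicate 1 (-0.70) or 2 (-0.42), without SMC replicate 1 (-0.37) and under both scalings.

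CLDN1 and CLDN11 dipped at day 4 and came back by day 21. CLDN1, the claudin of the skin barrier (probe set 8092726), had 8.02 and 7.89 for hESC, 6.76 and 7.05 for INM and 8.33 and 8.27 for SMC. Both INM arrays were lowest and the SMC arrays were highest. It fell by 1.05 ± 0.14 (2.08-fold, adjusted p = 0.0021), rose by 1.4 ± 0.14 (2.64-fold, adjusted p = 0.00117), and SMC minus hESC was 0.34 ± 0.14 (adjusted p = 0.0935), which passed the test without either INM array (0.34, adjusted p = 0.0264) and under median centring (0.48, adjusted p = 0.0389). CLDN11, the claudin of myelin and of the testis barrier (probe set 8083887), had 8.29 and 8.09, 7.40 and 7.41, and 8.59 and 8.58. Its order was the same, with no overlap. It fell by 0.78 ± 0.12 (adjusted p = 0.00377), rose by 1.18 ± 0.12 (2.27-fold, adjusted p = 0.0013) and ended 0.40 ± 0.12 above hESC (adjusted p = 0.0379). The dips and returns of the 2 genes held without any 1 array. The last difference, CLDN11 above hESC, lost its call without hESC replicate 1 (0.50) or 2 (0.30), without either SMC array (0.40 in both) and with quantile normalization (0.36, adjusted p = 0.0673). The replicate number as a block gave 0.40 as well (adjusted p = 0.0604).

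CLDN17 and CLDN2, both pore-forming, dipped too. CLDN17 lay under the background reference on all 6 arrays (4.42 and 4.2, 3.79 and 3.71, 4.25 and 4.21), where its change of -0.56 ± 0.12 (adjusted p = 0.0149) and rise of 0.48 ± 0.12 (adjusted p = 0.0375) are differences of background-level signal. The fall lost its call without hESC replicate 1 (-0.45), under median centring (-0.38, adjusted p = 0.051) and with quantile normalization (-0.23, adjusted p = 0.174). The rise lost its call without either hESC array (0.48), INM replicate 2 (0.44) or either SMC array (0.46 and 0.50), with quantile normalization (0.31, adjusted p = 0.112) and with the replicate number as a block (0.48, adjusted p = 0.0502). CLDN2, a pore for cations and water, had 5.81 and 5.62, 5.32 and 5.21, and 5.56 and 5.69. It fell by 0.45 ± 0.13 to INM (adjusted p = 0.0335), and its later change of 0.36 ± 0.13 missed the threshold (adjusted p = 0.0921). The CLDN2 fall lost its call without hESC replicate 1 (-0.36) or 2 (-0.55), INM replicate 2 (-0.40) or either SMC array (-0.45), under both scalings (-0.26 and -0.14) and with the replicate number as a block (-0.45, adjusted p = 0.0546).

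CLDN4 was the 1 claudin called higher in INM, and its neighbour fell. It had 7.07 and 7.01 for hESC, 7.76 and 7.44 for INM and 6.41 and 6.65 for SMC (probe set 8133360). INM was highest, SMC lowest, and the groups did not overlap. CLDN4, like CLDN3 a sealing claudin and a receptor for a clostridial enterotoxin, rose by 0.56 ± 0.15 (adjusted p = 0.0314), fell by 1.07 ± 0.15 or 2.10-fold to SMC (adjusted p = 0.00468), and differed from hESC by -0.51 ± 0.15 at day 21 (adjusted p = 0.0379). CLDN3 and CLDN4 are adjacent on chromosome 7 in the RefSeq gene order, and changed by -1.15 and 0.56 in INM; their windows are printed above. Each of these calls was lost with at least 1 array left out, in the same direction. The rise was 0.59 without hESC replicate 1, 0.53 without hESC replicate 2, 0.40 without INM replicate 1 and 0.56 without either SMC array, with adjusted p between 0.0568 and 0.138. The change from INM was -0.95 without SMC replicate 1 (adjusted p = 0.0531). The difference from hESC was -0.48 without hESC replicate 1, -0.54 without hESC replicate 2, -0.39 without SMC replicate 1 and -0.63 without SMC replicate 2 (adjusted p = 0.0775 to 0.217), and -0.38 and -0.41 under the 2 scalings (adjusted p = 0.0856 and 0.0709). CLDN6 likewise has a neighbour on chromosome 16, CLDN9, which changed by -0.26, 0.16 and -0.11 and passed no test.

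**Figure D3:**
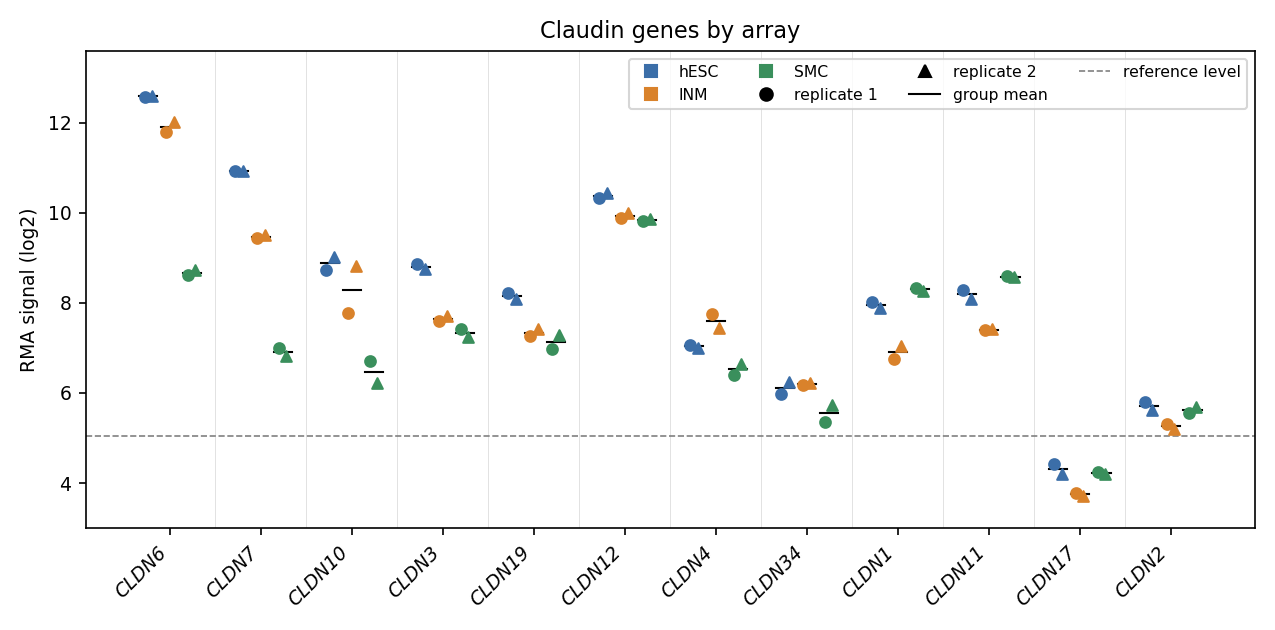
RMA signal on the log2 scale (vertical axis) of the 12 claudins called in at least 1 comparison, on each of the 6 arrays, with circles for replicate 1, triangles for replicate 2, black bars for group means and a dashed line at the background reference of 5.04. CLDN6 and CLDN7 step down from hESC to INM and again to SMC, CLDN1 and CLDN11 have their lowest arrays in INM, and CLDN17 lies under the dashed line throughout.

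The plot of claudins by array leaves out the 11 that passed no test. Their array values ran from 3.28 (CLDN24) to 7.67 (CLDN15), and their changes from -0.37 (CLDN14) to 0.27 (CLDN18). CLDN5, the claudin of the blood vessel wall, was among them, with 7.12 and 7.12 for hESC, 6.96 and 6.75 for INM and 7.02 and 7.06 for SMC. Its changes were -0.27 ± 0.12, 0.19 ± 0.12 and -0.08 ± 0.12 (adjusted p = 0.135, 0.32 and 0.654), and the first was -0.37 and passed without INM replicate 1 (adjusted p = 0.0413). CLDN18, a claudin of stomach and lung, differed by -0.34 in INM and narrowly missed the threshold (adjusted p = 0.0815). CLDN16, the kidney partner of CLDN19, changed by -0.09, 0.20 and 0.11. Over all 71 genes, 19 of the 44 calls in the 3 comparisons held in each of the 6 fits that left out 1 array.

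The other proteins of the tight junction fell mainly at the second step. Of 24 listed partners 20 were measured, of which 5 rose and 5 fell in INM, 1 rose and 12 fell between INM and SMC, and 3 were higher and 10 lower in SMC than in hESC, with medians of -0.06, -0.53 and -0.44. These are 25.0% higher and 25.0% lower in INM, 60.0% lower from INM to SMC and 50.0% lower in SMC against hESC, beside 18.9%, 14.8%, 11.1% and 17.6% of all genes, the shares against which the counts of the lists below also stand. MARVELD2, tricellulin, which seals corners where 3 cells meet, had 8.02 and 8.06 for hESC, 7.74 and 8.13 for INM and 5.08 and 4.87 for SMC. Its SMC arrays were far below the rest, with a mean of 4.98, under the background reference, and the change from INM was -2.95 ± 0.16 (adjusted p = 1.5e-04). PATJ, a polarity scaffold, fell by 2.73 ± 0.20 at the same step (adjusted p = 3.7e-04) and LSR, another protein of tricellular corners, fell at both, with changes of -1.30 ± 0.20 (adjusted p = 0.00382) and -1.2 ± 0.20 (adjusted p = 0.00809). MAGI3, a scaffold, took the up and down course of the simple keratins, with a rise of 2.13 ± 0.15 (adjusted p = 2.1e-04) and a change of -1.71 ± 0.15 (adjusted p = 7.4e-04). JAM2, an adhesion molecule also found in vessels, rose by 2.03 ± 0.11 between INM and SMC (adjusted p = 1.6e-04), from 8.08 and 8.03 to 10.12 and 10.07. The later fall of LSR was lost without SMC replicate 2 (-0.99, adjusted p = 0.0717). Of the calls in this list, 2 of 5 rises and 2 of 5 falls in INM and 4 of 12 falls from INM to SMC held without any 1 array. The 5 and 5 split in INM became 7 and 2 under median centring, and the 3 and 10 split in SMC against hESC became 4 and 7.

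Some of the anchors of keratin filaments rose at day 4, as the simple keratins did. Of 16 desmosome genes, 5 rose in INM (DSP, JUP, PKP2, DSC2 and PERP) and 1 fell (PPL), 0 rose and 6 fell between INM and SMC, and 1 was higher and 6 were lower in SMC than in hESC, with medians of 0.06, -0.47 and -0.18. The shares were 31.2% higher in INM beside 18.9% of all genes, and 37.5% lower from INM to SMC beside 11.1%. DSP, desmoplakin, which ties keratin to the desmosome, had 9.06 and 9.12 for hESC, 10.61 and 11.28 for INM and 9.35 and 9.28 for SMC. It rose by 1.86 ± 0.21 (adjusted p = 0.00136), fell by 1.64 ± 0.21 (adjusted p = 0.0035) and at day 21 differed from hESC by 0.22 ± 0.21 (adjusted p = 0.458). DSC2, a desmosomal cadherin, had 9.32 and 9.41, 10.47 and 10.50, and 7.11 and 7.13. It rose by 1.12 ± 0.11 (adjusted p = 7.1e-04) and then fell by 3.36 ± 0.11 (adjusted p = 4.5e-05), below hESC. Of these calls, 4 of the 5 rises and 5 of the 6 later falls held without any 1 array; the PKP2 rise was 1.13 without hESC replicate 2 (adjusted p = 0.0559). The PPL fall was lost without either hESC array (-0.63 and -0.73) and without either SMC array (-0.68). DSG3, the skin desmosomal cadherin, changed by 0.04, -0.31 and -0.27 and passed no test. Among 14 genes of the cornified skin layer, 1 rose (TGM1, by 0.44) and 2 fell (KLK5 and SPRR2A) in INM, beside 18.9% of all genes higher and 14.8% lower. None of these 3 calls held in each fit without 1 array: TGM1 was lost without hESC replicate 1 (0.48) or 2 (0.41) and without either SMC array (0.44), KLK5 without hESC replicate 1 (-0.60) or 2 (-0.45), and SPRR2A, which lay under the background reference on all arrays, without hESC replicate 1 (-0.40) or 2 (-0.44) and without either SMC array (-0.42).

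**Figure D4:**
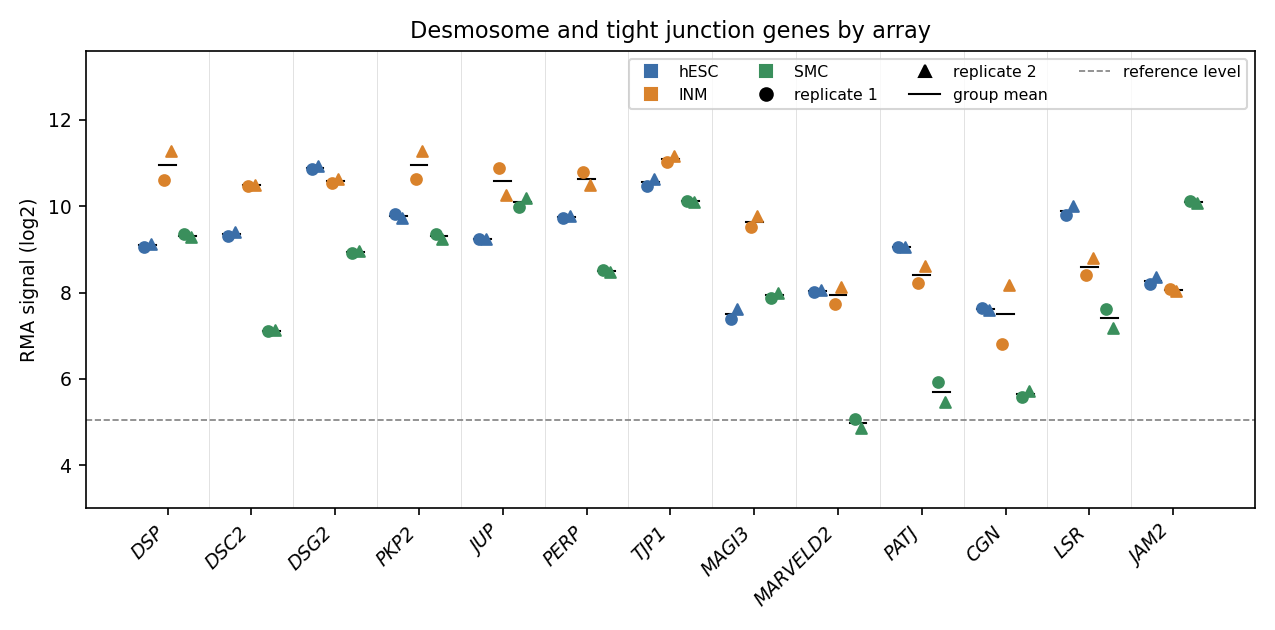
RMA signal on the log2 scale (vertical axis) of 6 desmosome and 7 tight junction partner genes on each of the 6 arrays, with circles for replicate 1, triangles for replicate 2, black bars for group means and a dashed line at the background reference of 5.04. DSP, DSC2, PKP2 and MAGI3 are highest in INM, MARVELD2, PATJ and CGN drop in SMC, and JAM2 is highest in SMC.

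The plot of junction genes by array shows CGN, cingulin, with INM arrays 1.37 apart (6.82 and 8.18), and a change of -1.84 ± 0.39 to SMC (adjusted p = 0.0203). Its call was lost without either hESC array (-1.84) and without SMC replicate 1 (-1.77) or 2 (-1.92). Of 15 other intermediate filament genes, 5 rose in INM and 0 fell (LMNA, VIM, SYNM, NES and INA), of which LMNA and VIM held without any 1 array. SYNM was lost without hESC replicate 2 (0.69), NES without hESC replicate 1 (0.77) or 2 (0.79) and INA without hESC replicate 1 (0.56). VIM, vimentin, the filament of mesenchymal cells, had 10.60 and 10.75 for hESC, 12.58 and 11.89 for INM and 13.07 and 13.09 for SMC. It was higher in INM by 1.56 ± 0.22 (adjusted p = 0.00308), at the step at which KRT8 and KRT18 also rose, and higher again in SMC by 0.85 ± 0.22 (adjusted p = 0.0408), at the step at which they fell. That second VIM call was lost without either hESC array (0.85, adjusted p = 0.0884) and without SMC replicate 1 (0.86) or 2 (0.84). DES, the muscle filament desmin, rose by 0.68 ± 0.17 between INM and SMC (adjusted p = 0.038). Its call was lost without SMC replicate 1 (0.82) or 2 (0.53). At this step 2 genes of the list rose and 3 fell, with a list median of -0.24. The 3 that fell were NES, LMNB2 and INA. They changed by -0.91 ± 0.16, -0.62 ± 0.17 and -0.56 ± 0.11 (adjusted p = 0.00913, 0.0483 and 0.0152). Their calls were lost without SMC replicate 1 (-0.89, -0.65 and -0.6) or 2 (-0.94, -0.59 and -0.51). Of 8 hemidesmosome and linker genes measured of 11, 3 rose in INM (TCHP, CD151 and LAMB3) and 1 fell (DST), and the fall held without any 1 array while none of the 3 rises did. They were lost without hESC replicate 1 or 2 (0.66 and 0.59 for TCHP, 0.55 and 0.56 for CD151, 0.58 and 0.38 for LAMB3), and those of CD151 (0.55) and LAMB3 (0.48) also without either SMC array.

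Most of the factors known to lower epithelial genes rose in INM, and some of those known to raise them did. Of 6 repressors, 5 rose in INM and 0 fell, and 4 were higher in SMC than in hESC. Each of these calls held without any 1 array. SNAI2 had 6.95 and 7.12 for hESC, 12.40 and 12.64 for INM and 12.83 and 12.83 for SMC, a rise of 5.48 ± 0.13 (adjusted p = 7.3e-06). SNAI1 rose by 2.23 ± 0.16 (adjusted p = 2.5e-04) and then fell by 1.79 ± 0.16 (adjusted p = 9.0e-04), whereas ZEB2 rose by 4.79 ± 0.27 (adjusted p = 1.2e-04) and changed by -0.16 ± 0.27 after that (adjusted p = 0.727). Of 12 epithelial regulators measured of 15, 4 rose in INM (TFAP2A, TFAP2C, KLF5 and GRHL3; 33.3% beside 18.9% of all genes) and 0 fell, and 0 rose and 6 fell between INM and SMC. TFAP2A, a factor of surface ectoderm, trophoblast and amnion, had 5.71 and 5.30 for hESC, 11.49 and 10.27 for INM and 8.12 and 8.19 for SMC. It rose by 5.37 ± 0.37 (adjusted p = 2.1e-04) and fell by 2.72 ± 0.37 (adjusted p = 0.00409). GRHL2, which is known to raise claudin genes, changed by 0.15 ± 0.37 in INM (adjusted p = 0.781) and fell by 3.24 ± 0.37 to SMC (adjusted p = 0.00213), from 7.83 and 9.05 to 5.39 and 5.01. Of these regulator calls, that of TFAP2A in INM and those of GRHL2, TFAP2A and TFAP2C at the later step held without any 1 array. In INM, TFAP2C was lost without hESC replicate 1 (0.77) or 2 (0.80), KLF5 without hESC replicate 1 (0.63), and GRHL3 without hESC replicate 1 (0.60) or 2 (0.84) and without INM replicate 2 (0.59).

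Markers of other cell types, some of which express simple keratins, differed in their course. From INM to SMC, where the simple keratins fell, 1 mesothelium or epicardium gene rose and 1 fell. In a list for trophoblast or amnion, 6 of 11 genes measured were higher in INM than in hESC and 0 lower. The 6 were HAND1, TFAP2A, ISL1, GATA3, IGFBP3 and VTCN1. Between INM and SMC 6 fell, HAND1, VTCN1, ISL1, TFAP2A, GATA3 and TFAP2B. IGFBP3 instead rose further, by 0.86 ± 0.19 (adjusted p = 0.0253). The summed log2 level of the list was 60.4 to 61.8 in hESC, 87.2 to 90.4 in INM and 70.3 to 70.4 in SMC. HAND1 and ISL1 are also in the mesoderm list, and TFAP2A is among the epithelial regulators. GCM1, ELF5 and TFAP2B changed by 0.21, -0.2 and 0.31 in INM and were not called there. VTCN1, an amnion and trophoblast gene, had 5.49 and 5.37, then 7.78 and 9.28, then 5.25 and 5.13. The placental hormone subunit CGA was at 7.75 in INM replicate 1 and at 5.12 in INM replicate 2. Its change of 0.81 ± 0.74 in INM did not pass the test (adjusted p = 0.434). XAGE2 stayed under the background reference on all arrays. The 6 rises in INM, and 5 of the 6 later falls, held without any 1 array. The later rise of IGFBP3 was lost without SMC replicate 1 (0.85) or 2 (0.87). In a list for mesothelium or epicardium, 7 of 9 genes were higher and 1 lower in INM, of which 3 rises (BNC1, LRRN4 and TBX18) and not the fall held without any 1 array, with sums of 53.1 to 53.5, 62.6 to 65.5 and 65.5 to 65.9. For surface ectoderm 2 of 6 (PERP and GRHL3) rose in INM and 0 fell, PERP alone without any 1 array, with sums of 40.3 to 40.6, 41.7 to 43.5 and 37.1 to 38.1. Between INM and SMC the same 2 genes fell and 0 rose (33.3% lower beside 11.1% of all genes). PERP changed by -2.14 ± 0.13 and GRHL3 by -1.22 ± 0.20 (adjusted p = 2.2e-04 and 0.00756). The GRHL3 fall was lost without SMC replicate 1 (-0.97). For definitive endoderm 0 of 9 rose and 1 fell, with sums of 57.9 to 59.8, 56.9 to 62.1 and 59.0 to 59.1, and for endothelium 1 of 10 rose in INM and 3 between INM and SMC, with sums of 64.8 to 65.1, 65.2 to 68.2 and 71.9 to 72.3. Some uncalled genes had INM arrays far apart: GATA6 (8.15 and 10.11), CER1 (5.87 and 7.79), TEK (7.97 and 10.52) and KDR (9.09 and 11.47). INM replicate 1 was the higher array for 1 of the 9 endoderm genes and 7 of the 10 endothelial genes. The endoderm fall and the endothelial rise in INM did not hold in each fit without 1 array, and 2 of the 3 later endothelial rises did. The background shares are those of all genes given above. The part of such cells in the keratin and claudin changes was not tested, and in these bulk samples fewer cells of a type and less RNA per cell cannot be told apart.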

How the data were processed

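The authors deposited 1 table of log2 values for 33297 probe sets on 6 arrays. RMA and limma are named per the submitters' processing notes, without versions; their settings and the array's build were not given in the sources used here. Values of 1.36 to 14.1 fit a log2 scale. Arrays have no read depth, and their number limits the precision.

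Probe sets were named through the platform annotation (19460 with 1 symbol, 1754 with several, 12083 unnamed). Symbols were updated through Entrez identifiers, which matched for 19429, to a RefSeq table of GRCh38.p14. Each gene was read from the single-symbol probe set whose mean was highest, which gave 18417 genes. KRT6A, KRT6B, KRT6C, KRT17, KRT81, KRT82, KRT86 and CLDN25 were not analysed here. The 2 probe sets of KRT39, and those of KRT40, hold identical values. Close copies such as KRT33A and KRT33B may share signal.

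Groups came from the sample titles. All 6 arrays entered 1 model of 3 group means in limma 3.58.1 in R 4.3.3 (lmFit and eBayes, two-sided, with 3 residual and 3.56 prior degrees of freedom), adjusted by Benjamini-Hochberg over all genes and called under 0.05. The script was tested on simulated data. Folds are given only where both means lie above the background reference.

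The members and lists were chosen with earlier results of these data known. Named are members called with a log2 change of 1 or more, a fixed set (KRT5, KRT7, KRT8, KRT14, KRT18, KRT19, CLDN1, CLDN3, CLDN4, CLDN5, CLDN6, CLDN7, CLDN10 and CLDN11), those nearest the threshold, extremes of level, and from each list up to 4 genes with the largest changes and all genes behind counts of 5 or fewer. Other called members, neighbours and list genes were named after their values were seen. Alternatives were array scaling, a low-signal filter, the choice of probe set, the arrays in the fit, the variance model, the replicate number as a block, and leaving out each array.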

Additional observations from a re-analysis of the deposited data

How the results depend on the processing

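Of the 44 calls of keratins and claudins, 30 held under each of the 8 alternatives that kept all arrays of a comparison, and 19 held under all 14. Quantile normalization gave 12 keratins in INM against hESC in place of 7, and fitting only the 2 groups compared gave 9 in SMC against hESC in place of 5. The share of keratins called went from 14.6% to 25% in the first and from 10.4% to 18.8% in the second. That of all genes stayed at 33.8% in the first and went from 37.2% to 50% in the second. Centring and quantile normalization moved the median change of all genes in INM against hESC from -0.03 to 0.16 and 0.13. Leaving out 1 array gave 3 to 7, 2 to 6 and 2 to 9 keratins, and 4 to 11, 4 to 8 and 5 to 11 claudins, in INM against hESC, SMC against INM and SMC against hESC. The replicate number as a block gave 5, 5 and 4 keratins and 9, 7 and 7 claudins. Whether that number pairs the samples is not known. Replicate differences correlated at 0.074 between hESC and INM, -0.067 between INM and SMC and -0.119 between hESC and SMC. Values this near 0 cannot decide it, since the spread between single arrays can hide a shared part. With the SMC numbers crossed, chosen after seeing the data, the block gave 7 keratins and 8 claudins in SMC against hESC.

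Changes that turned their sign were all uncalled. In SMC against hESC, median centring gave 0.05 for CLDN17, 0.04 for CLDN2 and 0.06 for CLDN5, and quantile normalization 0.08, 0.10 and 0.00. For KRT2 in INM against hESC they gave 0.11 and 0.26. Leaving out 1 array gave ranges that cross or reach 0. In INM against hESC they were -0.05 to 0.23 for CLDN34, -0.07 to 0.33 for KRT14 and -0.20 to 0.04 for KRT2. In SMC against INM they were -0.23 to 0.01 for KRT14, -0.13 to 0.03 for KRT5 and -0.12 to 0.02 for KRT84. In SMC against hESC they were -0.19 to 0.03 for CLDN17, -0.19 to 0.00 for CLDN2, -0.18 to 0.22 for KRT14 and -0.02 to 0.19 for KRT5. The cause was not tested.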

Other observations

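A probe set shared by KRT16, a keratin of stressed skin, and 3 of its pseudogene copies was higher in INM, with 6.84 and 6.79 for hESC, 7.54 and 7.71 for INM and 6.85 and 6.71 for SMC, group differences of 0.81, -0.84 and -0.03. The probe set with the KRT16 symbol alone had 6.83 and 6.73, 6.86 and 7.07, and 6.99 and 6.84, with changes of 0.19, -0.05 and 0.14, and passed no test. The shared probe set cannot be assigned to 1 gene and entered no comparison. A probe set shared by KRT18 and the microRNA gene MIR622 had 10.46 and 10.30 for hESC, 13.20 and 12.83 for INM and 11.66 and 11.92 for SMC, with differences of 2.64, -1.23 and 1.41, in the same directions as the KRT18 probe set used above.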
